A study of Mus musculus with 4 samples.

Results

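Genes of the DNA replication machinery were measured in germinal centre (GC) and naive B cells of the mouse. A list of 47 genes was taken, from origin licensing to chromatin assembly behind the fork, and every probe set that the platform annotation gives to 1 gene symbol on that list was read. This found 46 of the 47 genes, among 18194 genes on the array, through 97 probe sets. Chaf1a was not analysed here. Between 1 and 5 probe sets represented a gene, and 12 of the 46 genes had only 1.

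Each of 4 cell populations was measured on 1 array. GC B cells, sorted as B220+PNA+Fas+, and naive B cells, sorted as B220+PNA-Fas-, came from peripheral lymph nodes (pLN) of C57BL6/J wild type mice that had been immunised with TNP-KLH, a hapten coupled to a carrier protein, in incomplete Freund's adjuvant. The same 2 populations were sorted from Peyer's patches (PP), which are lymphoid tissue in the wall of the gut, of untreated C57BL6/J wild type mice. All mice were adults kept under specific pathogen-free conditions, and each RNA sample was pooled from 3 to 5 of them, so the variation between mice was not measured.

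Before a cell divides it copies its genome once. In G1 the origin recognition complex, Cdc6 and Cdt1 load the MCM ring onto DNA, a step called licensing, and at the start of S phase the kinase made of Cdc7 and Dbf4, with Cdc45 and the GINS complex, turns that ring into the active helicase. Polymerases alpha, delta and epsilon then copy the strands, delta and epsilon held to DNA by the ring-shaped clamp PCNA. Histone chaperones rebuild the chromatin behind the fork. GC B cells are known for rapid cycling, while naive B cells rest outside the cycle. Many genes of this machinery are known targets of E2F, the transcription factor family released at entry into S phase.

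The stretches below are the upstream sequences of the 3 genes with the largest increase in GC cells among those whose upstream window holds an E2F-like word, and are shown because E2F sites are a known shared feature of replication gene promoters. The words searched were TTTCCCGC, TTTCGCGC, TTTGCCGC and TTTGGCGC, on both strands, and CCAAT, the word of the factor NF-Y, on both strands. E2F-like words can overlap each other, as a pair does in Mcm6, and share no letters with CCAAT in the 3 windows shown. Each line holds the 250 bases before the RefSeq start of the gene (GRCm38.p6), read in the direction of the gene, with the matched words in capitals.
Cdc6: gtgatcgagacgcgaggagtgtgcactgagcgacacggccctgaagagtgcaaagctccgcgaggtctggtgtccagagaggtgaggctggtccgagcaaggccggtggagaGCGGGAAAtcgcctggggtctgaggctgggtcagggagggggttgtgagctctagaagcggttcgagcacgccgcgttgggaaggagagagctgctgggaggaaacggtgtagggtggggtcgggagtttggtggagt
Pola1: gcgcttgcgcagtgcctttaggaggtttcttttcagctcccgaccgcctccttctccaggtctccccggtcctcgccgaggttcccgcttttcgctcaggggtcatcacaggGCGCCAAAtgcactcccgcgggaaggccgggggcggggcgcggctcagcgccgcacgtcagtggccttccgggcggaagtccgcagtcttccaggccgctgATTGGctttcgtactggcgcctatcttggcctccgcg
Mcm6: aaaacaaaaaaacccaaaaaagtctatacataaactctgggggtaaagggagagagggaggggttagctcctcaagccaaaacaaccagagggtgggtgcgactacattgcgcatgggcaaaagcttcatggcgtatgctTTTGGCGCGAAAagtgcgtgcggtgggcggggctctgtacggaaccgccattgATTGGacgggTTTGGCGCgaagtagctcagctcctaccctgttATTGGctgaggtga
They lie at chr11:98907901-98908150 on the plus strand (Cdc6), chrX:93632156-93632405 on the minus strand (Pola1) and chr1:128359706-128359955 on the minus strand (Mcm6). Cdc6 held 1 E2F-like word, Pola1 held 1 and Mcm6 held 3, of which 2 overlap. Upstream windows were found for 38 of the 46 genes. An E2F-like word stood in 7 of these 38 genes (18.4%), against 2.16% of 27025 genes in the whole table. The 7 were Cdc6, Pola1, Mcm6, Orc1, Rfc3, Mcm5 and Mcm7. In the comparison given below 6 of them were called higher in GC cells, as were 26 of all 38 genes with a window. CCAAT stood in 22 of the 38 (57.9%), against 37.5% of all genes. A match describes the letters and does not show that a factor binds there.

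The values are array signals scaled so that the 2% trimmed mean of each array is 500. Differences between cell types are given as log2 folds of the signal plus 14.3, averaged over the 2 tissues, with limma's moderated standard error (SE). That SE draws mostly on a spread pooled over the genes tested, so it can be far wider than the gap between the 2 tissues. A gene was called higher or lower at an adjusted p under 0.05 (limma with tissue as a block, Benjamini-Hochberg adjustment over all 10389 genes tested). Each gene was represented by its brightest probe set. A detection level was taken from genes of other tissues (the 90th percentile of their signals) and stood at 28.8 on the GC pLN, 51.4 on the GC PP, 67.0 on the naive pLN and 150 on the naive PP array. All 46 replication genes were above the level on both GC arrays and were tested. Of these, 34 were above it on all 4 arrays, 8 were below it on 1 naive array and 4 on both.

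The sorted populations carried most markers of their labels. Of 7 measured GC markers 6 were called higher in GC cells, among them the proliferation marker Mki67 and Fas, which the sort itself used. Bcl6 was not called (0.79 ± 0.43). All 6 measured naive and follicular markers were called lower. The 5 measured B cell markers were above the level on every array, and 1 of them, Cd79a, was called lower (-1.40 ± 0.48). The naive arrays differed from the GC arrays in RNA quality. For Gapdh, the signal of the 3′ control divided by that of the 5′ control gave 1.48 (pLN) and 1.67 (PP) in GC cells, against 18.7 (pLN) and 96.4 (PP) in naive cells. The median signal of 18 hybridisation controls was 4092 (pLN) and 3964 (PP) in GC cells, against 7500 and 15677 in naive cells. Plasma cell markers summed to 21778 (pLN) and 27418 (PP) in GC cells, against 10912 and 7950 in naive cells, and 3 of 6 (Jchain, Mzb1 and Prdm1) were called higher. Macrophage and dendritic cell markers summed to 2992 (pLN) and 4563 (PP) in GC cells, against 1108 and 1240 in naive cells, with 3 to 5 of 8 above the level on an array. Most of that sum was Apoe, and the other 7 summed to 464 and 1001 in GC cells, against 804 and 748 in naive cells, with Itgam and C1qa below the level on all 4 arrays. Of the 4 tested, Apoe and Lyz2 were called higher and 2 were not called. Lyz2 read 244 (pLN) and 369 (PP) in GC cells, against 42.3 and 50.3 in naive cells, both naive values being below the level. T cell markers summed to 610 and 1135 in GC cells, against 1381 and 620 in naive cells, with 1 to 7 of 7 above the level. Of the 6 tested, Cd3g was called higher (1.71 ± 0.63), with both naive values below the level, and 5 were not called. Gut epithelium markers summed to 661 (pLN) and 2080 (PP) in GC cells, against 1375 and 3956 in naive cells, and the 3 tested were not called. The RNA ratio, the controls, the plasma cell and gut epithelium sums, Apoe, Lyz2 and Cd3g move with cell type, and their part in the GC-naive differences was not tested.

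GC cells carried more transcripts of most replication genes in both tissues. Of the 46 genes, 33 were called higher in GC cells, 2 were called lower (Orc2 and Pold1) and 11 were not called. Over all genes tested, 23.1% were called higher and 21.8% lower. The median log2 fold of the replication genes was 1.74, against -0.01 for all genes tested. The 12 genes below the level on a naive array passed the filter only through the GC arrays where they are high, so their p-values rest on signals below the level. All 12 are among the 33 and kept the call with such signals set to the level. Refitted over genes above the level on all 4 arrays, 22 of 34 replication genes were called higher and 2 lower, with a median of 1.16, against 19.0% higher and 31.0% lower of all genes. In 37 of the 46 genes both GC arrays were brighter than both naive arrays, which held for 37.6% of all tested genes. In bulk samples, fewer cells of a type and less RNA per cell cannot be told apart. The number called higher was 19 without GC PP and 24 without GC pLN, and 14 genes lost the call without 1 or both of these. They were Orc1, Orc6, Mcm5, Gins1, Pola2, Prim1, Prim2, Pold3, Pole, Pcna, Rfc3, Rfc5, Timeless and Chaf1b. The number called lower was 0 without GC pLN, 1 without GC PP, 4 without naive PP and 8 without naive pLN, and Orc2 lost its call without either GC array.

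**Figure D1:**
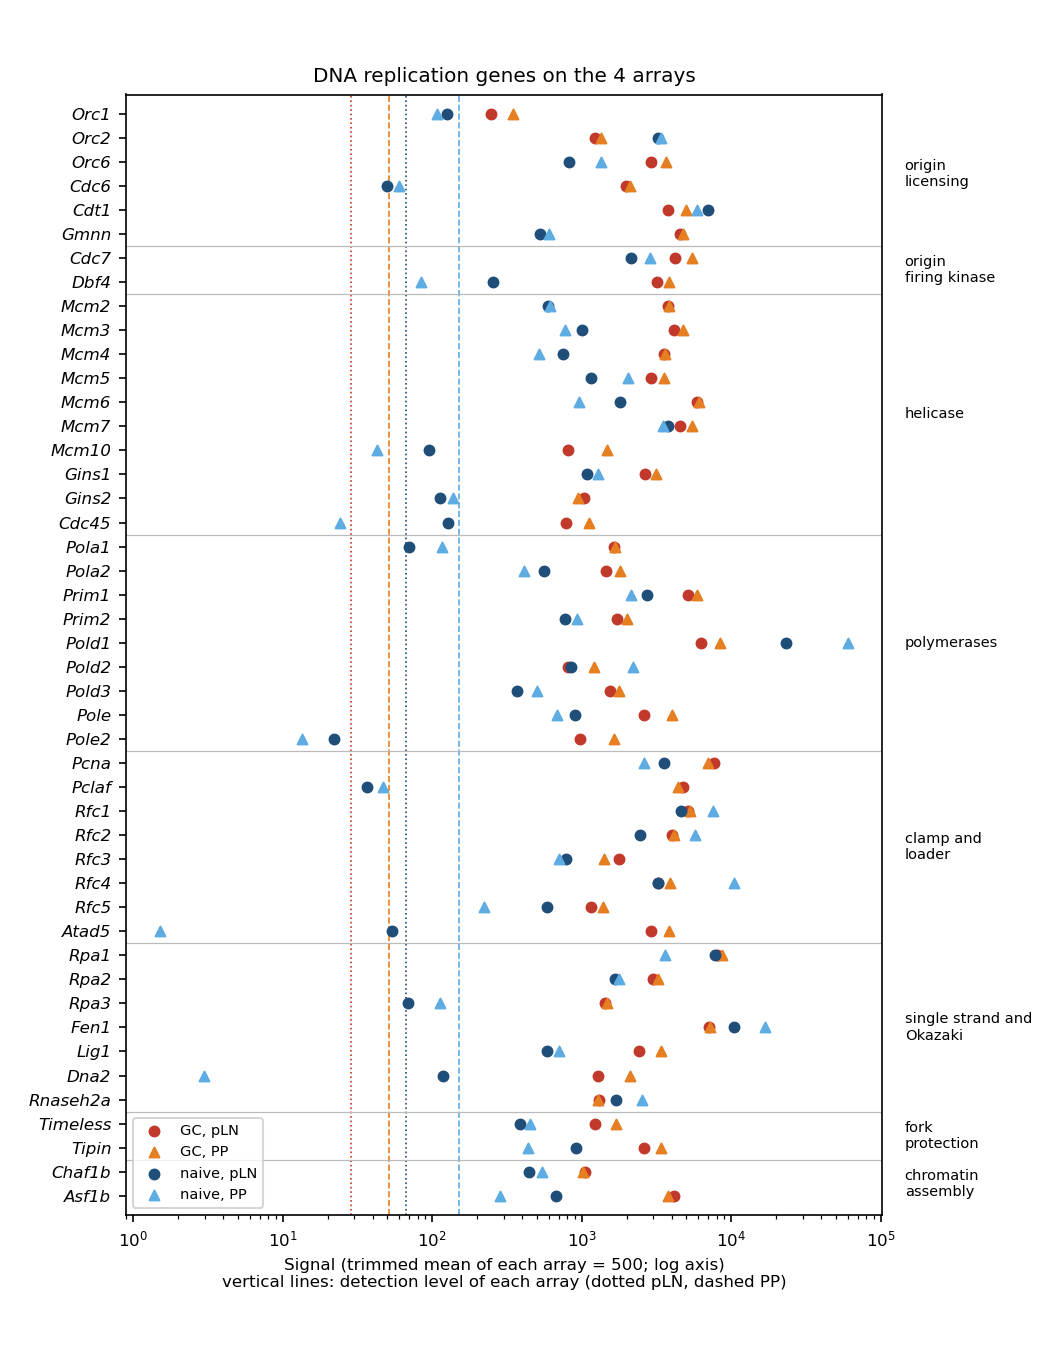
Signal of each replication gene (rows, grouped by step) on the 4 arrays, on a log axis; circles are pLN, triangles PP, red and orange GC, dark and light blue naive, and the vertical lines are the detection levels of the arrays (28.8 on GC pLN, 51.4 on GC PP, 67.0 on naive pLN, 150 on naive PP). The GC points lie to the right of the naive points for 37 of 46 genes and close to each other, while for 5 genes (Orc2, Cdt1, Pold1, Fen1 and Rnaseh2a) they lie the other way.

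Origin licensing factors were mostly higher, with 4 of 6 called higher and 1 called lower. Cdc6, the ATPase that helps load the MCM ring, read 1986 in GC pLN and 2091 in GC PP cells, against 49.9 in naive pLN and 59.8 in naive PP cells. Both naive values were below the detection level, so GC cells had at least 20.3-fold more Cdc6 signal. The fitted log2 fold, which uses the naive signals below the level, had an adjusted p of 9.1e-06 (limma). Such a bound sets the GC signals against the level of the naive arrays. Gmnn, the inhibitor of Cdt1 that blocks relicensing, read 4531 in GC pLN and 4736 in GC PP cells, against 523 in naive pLN and 601 in naive PP cells. The arrays of each cell type lay close together, and Gmnn rose by 3.01 ± 0.37 (adjusted p = 8.2e-05).

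The subunits of the origin recognition complex did not move as one. Orc6 read 2920 in GC pLN and 3662 in GC PP cells, against 822 in naive pLN and 1342 in naive PP cells, and rose by 1.62 ± 0.37. Orc1, the subunit whose level is known to follow the cell cycle, read 246 and 348 in GC cells, against 126 and 107 in naive cells of pLN and PP, with the naive PP value below the level. It was called at 1.23 ± 0.47 (adjusted p = 0.047) and lost the call in 5 of the 14 other settings that kept all arrays and tested it. The second Orc1 probe set, below the level on both naive arrays, was called higher at 2.50. Orc2 went the other way by its brightest probe set, with 1235 and 1355 in GC cells, against 3247 and 3392 in naive cells of pLN and PP. It fell by 1.35 on the log2 scale (SE 0.37, adjusted p = 0.010), but its 2 other probe sets were called higher in GC cells, at 1.31 and 2.95, and with the mean of its probe sets Orc2 stood at 0.97. Cdt1, the MCM loader that Gmnn binds, read 3783 in GC pLN and 5006 in GC PP cells, against 7034 in naive pLN and 5880 in naive PP cells. It was not called (-0.56 ± 0.41, adjusted p = 0.28), and its second probe set above the level stood at 0.14.

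Of the 2 subunits of the origin-firing kinase, Dbf4 was called higher and Cdc7 was not. Dbf4, the regulatory subunit, read 3202 in GC pLN and 3822 in GC PP cells, against 257 in naive pLN and 83.9 in naive PP cells. The naive PP value was below the level, and Dbf4 was at least 17.8-fold higher as a mean over the 2 tissues. In pLN, with both arrays above the level, it was 12.5-fold higher. The fitted log2 fold had a limma adjusted p of 2.6e-05. Cdc7, the catalytic subunit, read 4204 and 5490 in GC cells, against 2146 and 2857 in naive cells of pLN and PP. Its GC values were above its naive values in both tissues, but at 0.95 ± 0.38 it was not called (adjusted p = 0.057), and it was called in 7 of 15 other settings. Both genes have a dimmer second probe set, called higher at 1.46 in Dbf4 and at 1.46 in Cdc7.

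The helicase genes were the largest step, and 9 of its 10 members were called higher. The MCM ring is a hexamer of Mcm2 to Mcm7. Mcm2 read 3788 and 3850 in GC cells, against 593 and 609 in naive cells of pLN and PP, a rise of 2.64 ± 0.37 (adjusted p = 0.00019). Mcm4 read 3557 and 3615 in GC cells, against 750 and 518 in naive cells. Mcm3 read 4152 and 4790 in GC cells, against 998 and 771 in naive cells. By the probe sets used, these 3 subunits had log2 folds between 2.33 and 2.64. The other probe set of Mcm2 stood at 1.30 and that of Mcm4 at 4.98, both called higher. All 5 probe sets of Mcm3 were called higher, at 1.88 to 4.68. Mcm6 rose by 2.18 ± 0.40, with 5925 and 6122 in GC cells, against 1796 and 965 in naive cells. Mcm5 was called at 1.06 ± 0.38 (adjusted p = 0.035), with 2909 and 3563 in GC cells, against 1150 and 2041 in naive cells, and lost the call without the tissue block and without the intensity trend. Its other probe sets were called higher at 3.07 and at 1.95, the latter below the level on both naive arrays. Mcm7 read 4574 and 5457 in GC cells, against 3756 and 3474 in naive cells, and was not called (0.47 ± 0.39, adjusted p = 0.35). Its 4 probe sets ranged from 0.47 to 2.56, and 1 of them was called higher.

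Of the factors that activate the ring, the 4 on the list were called higher, while the 2 other GINS subunits, Gins3 (0.11 ± 0.40) and Gins4 (0.24 ± 0.39), were not called. Mcm10, which binds the helicase as origins fire, read 803 in GC pLN and 1485 in GC PP cells, against 95.9 in naive pLN and 42.6 in naive PP cells. It was at least 9.10-fold higher with naive PP set at the level (limma adjusted p of the fitted fold = 0.00014). Cdc45 read 789 and 1118 in GC cells, against 128 and 24.0 in naive cells of pLN and PP, and was at least 6.78-fold higher, although its second probe set, at 1.05, was not called. In both genes the naive pLN value stood above the level and the naive PP value below it. In pLN alone the folds were 8.38 for Mcm10 and 6.18 for Cdc45, under these bounds on the mean of the 2 tissues. Gins2 was at least 7.57-fold higher, with 1033 and 937 in GC cells, against 113 and 137 in naive cells, the naive PP value being below the level. Gins1, a second subunit of the same complex, rose by 1.28 ± 0.37, with 2637 and 3130 in GC cells, against 1086 and 1275 in naive cells. Its other probe set above the level stood at -0.03 and was not called, and with the mean of its probe sets Gins1 lost the call.

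**Figure D2:**
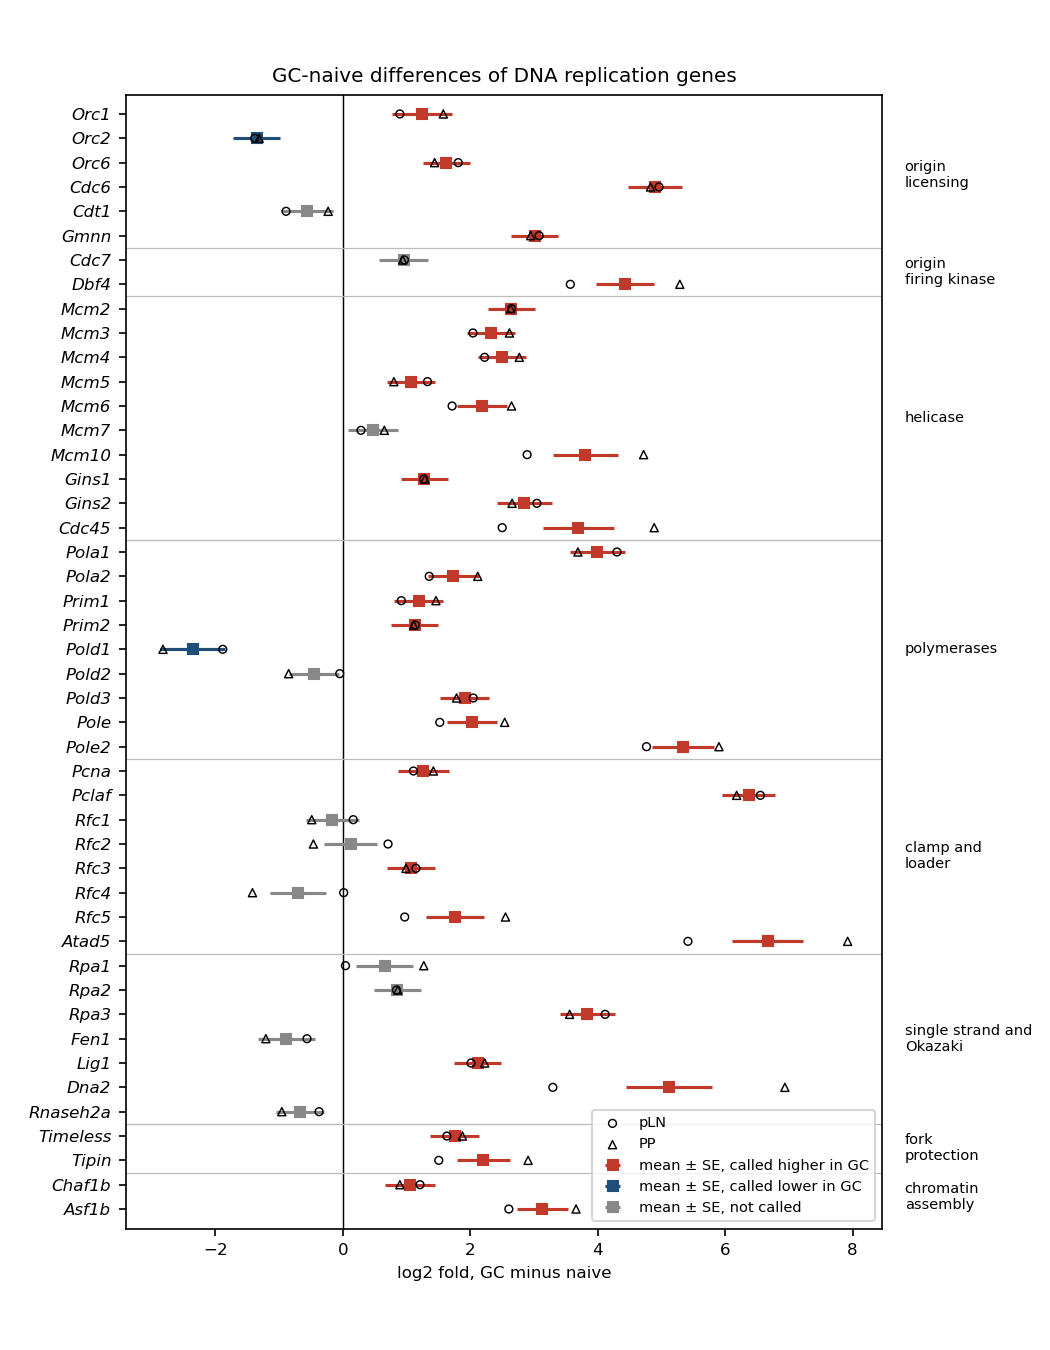
Log2 fold of GC over naive cells for each replication gene (rows, grouped by step); squares with bars are the mean of the 2 tissues ± SE, coloured by the limma call, and the open circle and triangle are the folds in pLN and PP. 33 genes are called higher and lie between 1.05 and 6.67, Orc2 and Pold1 are called lower, and 11 grey genes lie between -0.89 and 0.95. For the 12 genes below the level on a naive array the plotted fold depends on the offset.

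Among the polymerase genes 7 of 9 were called higher, 1 was called lower and 1 was not called. Polymerase alpha, which with primase starts each new strand, was called higher in all 4 subunits by the probe sets used. Pola1, its catalytic subunit and one of the genes whose promoter is printed above, read 1648 in GC pLN and 1664 in GC PP cells, against 70.0 in naive pLN and 116 in naive PP cells. The naive PP value was below the level, and Pola1 was at least 16.2-fold higher (limma adjusted p of the fitted fold = 3.4e-05). The accessory subunit Pola2 rose by 1.74 ± 0.40, and the primase subunits Prim1 and Prim2 by 1.19 ± 0.39 and 1.12 ± 0.37. The other probe sets of Pola2, at 0.37 and 1.09, were not called. Of polymerase epsilon, which copies the leading strand, the 2 subunits on the list were called higher, while its small subunits Pole3 (-0.17 ± 0.43) and Pole4 (0.43 ± 0.37) were not called. Pole, the catalytic subunit, read 2612 and 4032 in GC cells, against 901 and 682 in naive cells of pLN and PP (2.03 ± 0.39, adjusted p = 0.0015). Pole2, which was below the level on both naive arrays, read 975 and 1647 in GC cells, against 22.1 and 13.5 in naive cells, at least 12.6-fold higher.

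Polymerase delta, which copies the lagging strand, gave values in both directions. Pold3, an accessory subunit, read 1558 and 1771 in GC cells, against 367 and 504 in naive cells of pLN and PP, and rose by 1.91 ± 0.38. Its other probe sets stood at 1.57, called higher, and at 0.06, not called. Pold3 lost the call when read by its brightest naive probe set. Pold1, the catalytic subunit, read 6252 in GC pLN and 8469 in GC PP cells, against 23143 in naive pLN and 60070 in naive PP cells. The naive values exceeded the GC values in both tissues, and Pold1 fell by 2.36 on the log2 scale (SE 0.51, adjusted p = 0.0029). That probe set carries the suffix with which the manufacturer marks probes that can cross-hybridise. The second Pold1 probe set, which carries no such mark, read 1442 and 2010 in GC cells, against 4529 and 4180 in naive cells, and fell by 1.35. Pold1 was called lower in all 15 other settings that kept all arrays, at log2 folds from -2.49 to -1.05, and lost the call without GC pLN (-2.14). Pold2, measured by 1 probe set, read 813 and 1210 in GC cells, against 842 and 2194 in naive cells, and was not called (-0.45 ± 0.39, adjusted p = 0.36). The small subunit Pold4, which is not on the list, was called higher at 1.88 ± 0.42.

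The clamp gene Pcna was called higher, and so were Pclaf and Atad5. Pclaf, a small protein that binds PCNA, read 4764 in GC pLN and 4428 in GC PP cells, against 36.6 in naive pLN and 46.97 in naive PP cells. Both naive values lay below the level, and Pclaf was at least 45.8-fold higher (limma adjusted p of the fitted fold = 5.6e-06). Atad5, which unloads PCNA from DNA, read 2893 and 3821 in GC cells, against 53.8 and 1.52 in naive cells, at least 33.1-fold higher by the same kind of bound. The 2 other probe sets of Pclaf, at 5.87 and 1.44, and the second of Atad5, at 4.57, were also called higher. Pcna itself, measured by 1 probe set, was bright on all arrays and rose less, with 7637 and 7011 in GC cells, against 3538 and 2612 in naive cells (1.26 ± 0.40, adjusted p = 0.021).

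The clamp loader subunits, by contrast, gave 2 calls among 5. Rfc5 read 1156 and 1381 in GC cells, against 583 and 224 in naive cells of pLN and PP, and rose by 1.76 ± 0.45. Rfc3 read 1765 and 1416 in GC cells, against 790 and 706 in naive cells, and rose by 1.07 ± 0.37 (adjusted p = 0.034), a call it lost in 4 other settings. The second Rfc3 probe set, below the level on naive PP, was called higher at 3.07. Rfc1, the large subunit, read 5130 and 5339 in GC cells, against 4584 and 7500 in naive cells. Its groups overlapped, and so did those of Rfc2 (4047 and 4146 in GC cells, against 2471 and 5721 in naive cells) and Rfc4 (3254 and 3877 in GC cells, against 3226 and 10393 in naive cells). None of these 3 was called, at -0.16, 0.12 and -0.70, each with its sign depending on the setting. For Rfc1 the 2 other probe sets were called higher, at 1.60 and 1.40, and for Rfc4 the second was, at 1.35.

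Of the 7 genes that coat single-stranded DNA or finish Okazaki fragments, 3 were called higher and 4 were not called. Rpa3, the small subunit of replication protein A, read 1435 and 1476 in GC cells, against 69.3 and 112 in naive cells of pLN and PP. Its naive PP value was below the level, and Rpa3 was at least 14.3-fold higher (limma adjusted p of the fitted fold = 4.6e-05). Rpa1 and Rpa2, the larger subunits, were bright on the naive arrays and stood at 0.65 ± 0.45 and 0.85 ± 0.37, neither called. A dimmer probe set of each was called higher, at 3.44 for Rpa1 and 3.46 for Rpa2.

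Dna2, a nuclease and helicase that trims long flaps, read 1279 and 2102 in GC cells, against 117 and 2.98 in naive cells. With naive PP at the level it was at least 12.3-fold higher as a mean over the 2 tissues, and 10.9-fold higher in pLN. Lig1, the ligase that seals the fragments, read 2423 and 3371 in GC cells, against 590 and 709 in naive cells, and rose by 2.12 ± 0.37 (adjusted p = 0.00075). Fen1, the nuclease that removes short flaps, read 7075 and 7248 in GC cells, against 10464 and 16784 in naive cells by a probe set marked for cross-hybridisation, and was not called (-0.89 ± 0.45, adjusted p = 0.13). Its other probe set read 2780 and 2516 in GC cells, against 738 and 502 in naive cells, and was called higher at 2.09. Rnaseh2a, a subunit of the enzyme that removes ribonucleotides from DNA, was measured by 1 probe set and was not called (-0.67 ± 0.38).

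Fork protection and chromatin assembly genes were all called higher. Tipin and Timeless, partners that stabilise stalled forks, rose by 2.21 ± 0.42 and 1.75 ± 0.39. Asf1b, a chaperone that hands histones to the assembly factor, read 4164 and 3761 in GC cells, against 673 and 284 in naive cells of pLN and PP, and rose by 3.13 ± 0.40 (adjusted p = 0.00011). Chaf1b, a subunit of that factor, read 1046 and 1021 in GC cells, against 444 and 543 in naive cells. Its call, at 1.05 ± 0.39 (adjusted p = 0.043), was lost in 6 of 15 other settings.

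Probe sets of the same gene often differed in the size of the fold. Of 91 probe sets above the level, tested one by one, 66 were called higher and 3 lower, against 31.3% higher and 16.8% lower among all 19678 probe sets tested. That fit moderated the spread with a prior of 35.0 degrees of freedom, against 12.0 for the fit by genes. Among the 32 genes with 2 or more probe sets above the level, all probe sets were on the GC side in 24 and on the naive side in 1 (Pold1). The other 7 were Orc2, Cdt1, Gins1, Rfc1, Rfc2, Rfc4 and Fen1. The gap between the lowest and highest log2 fold of a gene reached 4.93 in Pclaf and 4.30 in Orc2 and was 0.11 in Prim1. When each gene was read by its brightest naive probe set instead, 31 genes were called higher and 2 lower, and the median log2 fold was 1.29. The position of the probe sets along the transcripts was not used here, so the part of the 3′ bias of the naive arrays in these gaps was not tested.

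**Figure D3:**
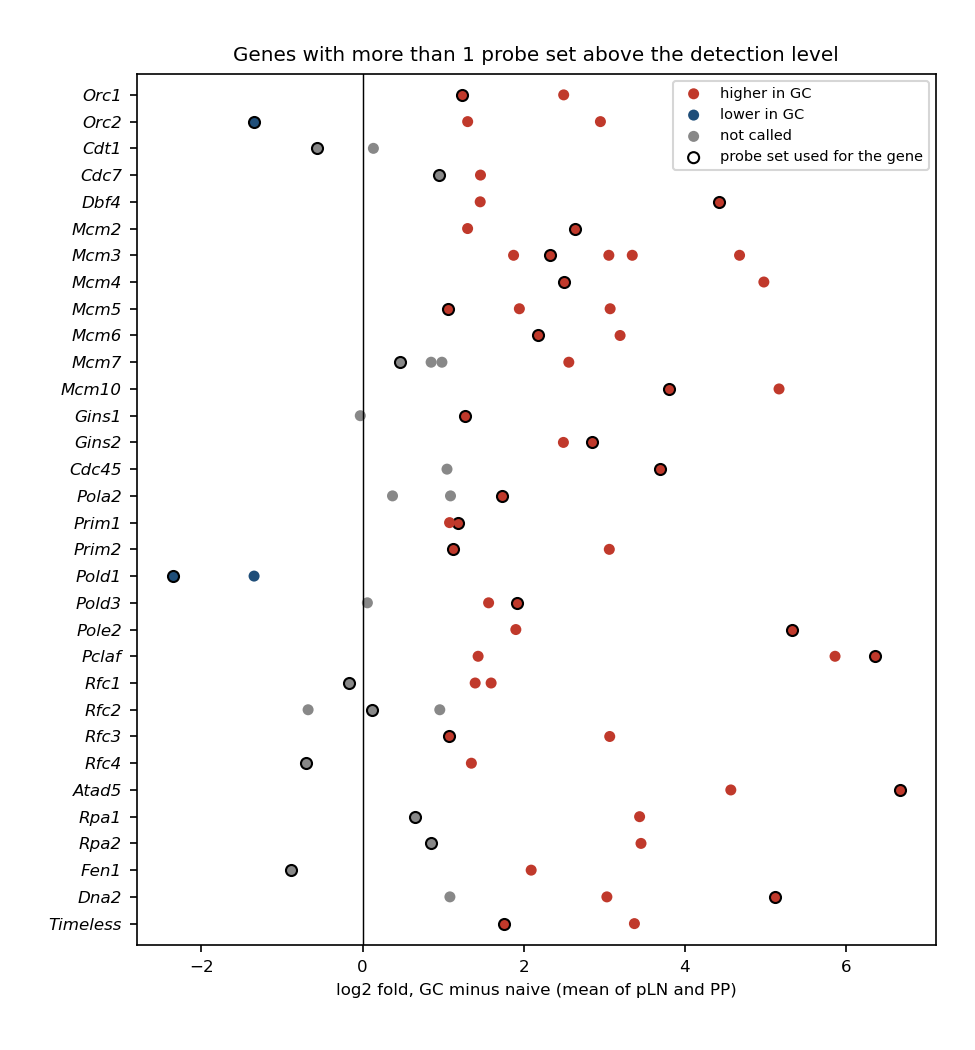
Log2 fold of GC over naive cells (mean of pLN and PP) of every probe set above the detection level, for the 32 replication genes with 2 or more; colours give the limma call of each probe set and a black ring marks the probe set used for the gene. In 24 genes all points lie to the right of 0, both points of Pold1 lie to the left, and 7 genes have points on both sides.

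Each tissue was also read by itself, 1 array against 1 and without a test. In pLN, GC signals exceeded naive signals by 2-fold or more in 30 of the 46 genes and the reverse held for 2, while 20.0% of all genes counted were higher and 23.4% lower. In PP, 31 were higher and 4 lower, against 31.0% and 25.9% of all genes. The median log2 fold was 1.83 in PP and 1.43 in pLN. The fold was larger in PP for 25 of the 46 genes, and for 56.6% of all tested genes. The pLN and PP folds of the 46 genes correlated with Pearson's r = 0.91. This describes the 46 genes only, and in both tissues the naive array is the one with the high 3′ to 5′ ratio.

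The GC cells of the 2 tissues were set against each other, which asks whether replication genes differ between GC cells of Peyer's patches and those of immunised lymph nodes. Tissue and immunisation cannot be told apart here, and with 1 array each there is no test. The values were close: 0 of 46 genes were 2-fold higher or lower in PP, while 5.09% of all genes were higher and 1.93% lower. Log2 folds of PP over pLN ranged from -0.31 to 0.88, with a median of 0.22, against 0.02 for all genes. By sign, 39 genes were higher and 7 lower in PP, with 52.1% of all genes higher. Left at the deposited scale, with each array's median at 1, all values shift down by 0.27, and 17 of the 46 genes were higher in PP, against 26.4% of all genes.

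The genes with the largest PP values relative to pLN were Mcm10, Pole2, Dna2 and Pole. Mcm10 read 1485 in GC PP and 803 in GC pLN cells, and its second probe set above the level read 1530 in PP and 875 in pLN. Pole2 read 1647 in PP and 975 in pLN, and Pole read 4032 in PP and 2612 in pLN. For Dna2 the 3 probe sets read 2102, 912 and 186 in PP, against 1279, 486 and 68.7 in pLN. In each of these 4 genes every probe set above the level was brighter in PP by more than 1.5 times, and they are the 4 genes at least 1.5-fold higher in PP on this scale, where 11.6% of all genes are. On the deposited scale 1 of them, Mcm10, remained past 1.5-fold, with 6.81% of all genes. No replication gene was 1.5-fold lower on either scale, with 6.31% of all genes lower on the first and 16.6% on the deposited scale. At the other end Rfc3 read 1416 in PP and 1765 in pLN, and its second probe set read 572 in PP and 866 in pLN. Pclaf, Pcna, Asf1b and Gins2 differed by 0.15 or less on the log2 scale. Of 8 gut epithelium markers 8 were above the level on GC PP and 3 on GC pLN, with summed signals of 2080 on GC PP and 661 on GC pLN, and plasma cell markers summed to 27418 on GC PP and 21778 on GC pLN, with Prdm1 at 1007 and 118 and Sdc1 at 2024 and 499. Their part in these differences was not tested. The 3′ to 5′ ratios of the 2 GC arrays, given above, were close to each other.

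**Figure D4:**
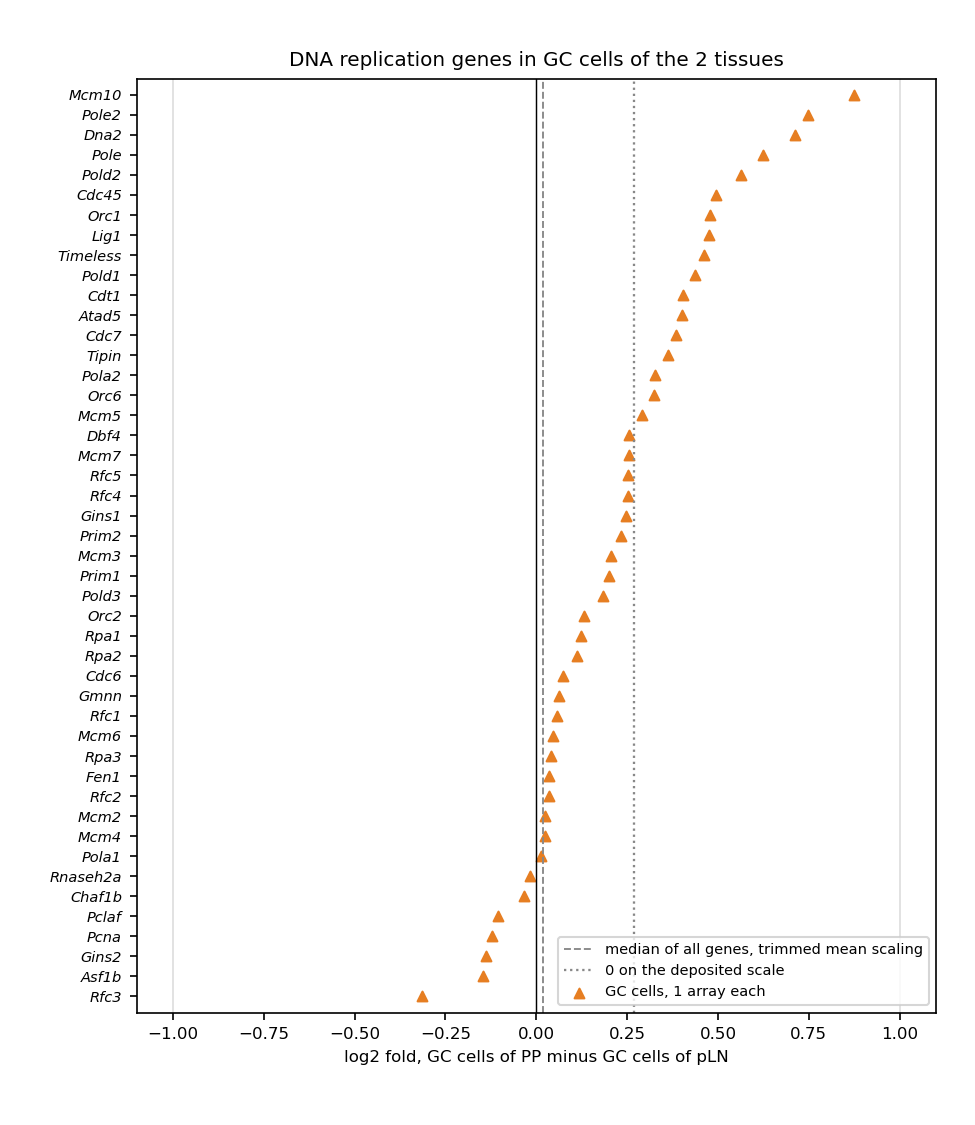
Log2 fold of PP over pLN in GC cells for each replication gene, sorted; 1 array in each tissue, with the dashed line at the median of all genes (0.02), the dotted line at the place of 0 on the deposited scale (0.27) and light lines at a 2-fold difference. All 46 genes lie between -0.31 and 0.88, and Mcm10, Pole2, Dna2 and Pole lie farthest to the right.

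In naive cells the replication genes differed between tissues about as often as genes in general. Of the 42 replication genes above the level on at least 1 naive array, PP signals exceeded pLN signals by 2-fold or more in 4 and the reverse held for 7, with 8.34% higher and 16.0% lower among all genes. Their median log2 fold was 0.08, against -0.13 for all genes, and its sign changed with the scaling. The 3′ to 5′ ratio of Gapdh was 96.4 on naive PP and 18.7 on naive pLN, and its part in these values was not tested. Apoa1, which the gut epithelium also makes, read from 644 to 1298 on naive PP by its 4 probe sets, and from 28.6 to 110 on naive pLN.

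Of 42 further genes of replication and S phase entry that are not on the list, 41 were measured and tested. Of these, 21 were called higher in GC cells, 1 was called lower and 19 were not called, with a median log2 fold of 1.17. The background for these calls is the 23.1% higher and 21.8% lower given above. The 4 with the highest fitted folds were Uhrf1, which recruits the maintenance methyltransferase to new DNA (at least 30.4-fold), Top2a, the topoisomerase that untangles copied chromosomes (at least 27.9-fold), Clspn, a fork checkpoint adaptor (at least 27.3-fold), and Ccna2, the S phase cyclin (at least 24.4-fold). On naive PP all 4 were below the level, on naive pLN above it, so these bounds do not order the genes. The lowest called genes were Dnmt1, the methyltransferase itself, and Cdc25a, Fbxo5 and Mtbp, with log2 folds of 1.17 to 1.18. Dnmt1 read 6921 and 8020 in GC cells, against 11490 and 31580 in naive cells of pLN and PP, and fell by 1.35 on the log2 scale (SE 0.49, adjusted p = 0.039). The probe set read for Dnmt1 carries the suffix that marks probes that can cross-hybridise.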

How the data were processed

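Single-colour Affymetrix arrays with 45101 probe sets were read for 4 samples, 1 in each group. The deposited unit is a linear intensity, made with GCOS per the submitters' processing notes, with its version, algorithm and scaling target not given in the sources used here. Every deposited array has a median of 1, and each was scaled to a 2% trimmed mean of 500. Of the probe sets, 34958 have 1 gene symbol, 932 several and 9211 none listed, and 34754 matched RefSeq by Entrez identifier, which changed 0 symbols.

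The median signal of 67 probe sets of 45 genes of other tissues, 14.3, was added before log2, and their 90th percentile was an array's detection level. A gene was read by the probe set whose log2 signal averaged highest, and was tested if above the level on both arrays of 1 cell type. Cell types were compared with limma 3.58.1 in R 4.3.3, tissue being the block, with an intensity trend and Benjamini-Hochberg adjustment. The fit has 1 residual and 12.0 prior degrees of freedom and was tested on simulated data. Those data had independent noise of the fit's own spread and no RNA quality difference between arrays. They therefore cannot show how the p-values behave under such a difference. The p-values of the fit rest mostly on a spread pooled over the genes tested, and less on how far the 2 tissues disagree for a gene. They do not measure the spread between mice, and having 4 arrays limits the precision. Where a naive array is below the level, that value was set to the level. The fold, a geometric mean over the 2 tissues, is then a bound on that mean and not on each tissue. Single arrays were compared without a test.

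All members are named in the text or figures, and further replication genes by rank of fold. Gins3, Gins4, Pole3, Pole4, Pold4, Prdm1, Sdc1, Cd3g, Apoa1 and the named macrophage markers were added after their values were seen. The members and lists were chosen with earlier results of these data known. Other settings changed the scaling, the offset, the filter, how a gene is read, the block and the trend, or left out an array. Protein sequences were not used here.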

Additional observations from a re-analysis of the deposited data

Results flagged for a closer look

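The GC-naive log2 folds of 3 clamp loader subunits had opposite signs in the 2 tissues. Rfc1 stood at -0.49 in PP and 0.16 in pLN, Rfc2 at -0.46 in PP and 0.71 in pLN, and Rfc4 at -1.42 in PP and 0.01 in pLN. Each is 1 array against 1, and the difference between the tissues was not tested. In all 3 the brightest probe set was used. The second probe set of Rfc4 was higher in GC cells of both tissues, at 1.69 in PP and 1.01 in pLN, as were the 2 other probe sets of Rfc1, at 1.60 and 0.99 in PP and at 1.59 and 1.80 in pLN. The 2 other probe sets of Rfc2 stood at 0.04 and 0.74 in PP and at -1.39 and 1.17 in pLN.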

How the results depend on the processing

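The labels give no replicate numbers, so tissue was the only block. Of 46 genes, 33 were called higher. Without the tissue block (no replicate block) 31 were, and in the other settings that kept all arrays 30 to 37, except 22 of the 34 genes above the level on all 4 arrays and 40 genes with a probe set called higher and none lower when each was fitted by itself. Of the 33, 26 kept the call in each of 15 settings that tested them, and 18 of these also without each array in turn. With 1 array left out the count was 19 to 37, the count called lower 0 to 8, and the median log2 fold 1.55 to 1.89, with the pooled spread standing in for the lone array of a cell type. The count called lower was 1 when arrays were scaled to the spike-in controls, 1 with the mean of all probe sets and 1 with each probe set by itself. The median log2 fold of 1.74 was 3.01 under spike-in scaling, where all genes shift to 1.23, 1.16 over the 34 genes above the level on all 4 arrays, and 1.29 when genes were read by their brightest naive probe set. Of those 34 genes, 19 were 2-fold higher in GC than in naive cells in PP, and 19 in pLN. At 1.5-fold, 4 genes were higher in PP than in pLN in GC cells (11.6% of all genes), and 1 on the deposited scale (6.81% of all genes), a setting added after seeing the data. The median PP-pLN fold in GC cells was -0.049 on the deposited scale. In naive cells it was -0.26 on that scale, -0.91 under spike-in scaling, -0.061 with the mean of all probe sets and -0.026 without shared or cross-hybridising probe sets, an alternative chosen after seeing the data. Single genes changed sign as follows. Under spike-in scaling Cdt1 stood at 0.74, Fen1 at 0.42, Pold2 at 0.84, Rfc1 at 1.14, Rfc4 at 0.60 and Rnaseh2a at 0.63. Under cyclic loess Cdt1 stood at 0.040, Fen1 at 0.060 and Rfc1 at 0.46, and with quantile normalization Fen1 at 0.014 and Rfc1 at 0.38. With the mean of all probe sets Fen1 stood at 0.60, Orc2 at 0.97, Rfc1 at 0.94 and Rfc4 at 0.32, and without shared or cross-hybridising probe sets Fen1 at 2.09 and Rfc4 at 1.35. Rfc2 was -0.015 on the deposited scale. With 1 array left out Pold2 ranged from -1.13 to 0.23, Rfc1 from -0.52 to 0.19, Rfc2 from -0.48 to 0.73 and Rfc4 from -1.55 to 0.14. The cause of these changes was not tested. Leaving Apoa1 out of the background list, also added after seeing the data, left the counts at 33 and 2. Signals near the detection level, which differs between the arrays, limit the folds of the 12 genes below it on a naive array.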
